A study of Homo sapiens with 12 samples.

Results

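GAS5 and 9 other host transcripts of small nucleolar RNAs (snoRNAs), namely SNHG1, SNHG5, SNHG6, SNHG7, SNHG8, SNHG12, SNHG15, SNHG16 and ZFAS1, were followed in HEK293T cells with a knockout of either 4EHP or GIGYF1/2, which are translational repressors. The genes were chosen by name, with earlier results of these data known, as transcripts with a TOP-like start whose decay is coupled to translation. They are 10 of the 27011 genes in the count tables. All 10 had a row in both assays, and all 10 passed the filter on low counts in both. In 4EHP-null cells, 9 of the 10 host transcripts were less abundant than in wild-type cells. In GIGYF1/2-null cells none passed the test in the fit without a replicate block, and 2, SNHG6 and SNHG7, were called lower in the fit with it.

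snoRNA host genes carry snoRNAs in their introns. After splicing, the introns are processed into snoRNAs that guide ribose methylation (box C/D snoRNAs) or pseudouridylation (box H/ACA snoRNAs) of ribosomal RNA, and the joined exons leave as a spliced transcript. Many of these spliced transcripts begin with a run of pyrimidines like the terminal oligopyrimidine (TOP) mRNAs of ribosomal proteins, contain short open reading frames, and are degraded by nonsense-mediated decay (NMD) when ribosomes translate them; GAS5 is the classical case and takes its name from its accumulation in growth-arrested cells. 4EHP, encoded by EIF4E2, is a cap-binding protein that does not recruit the initiation machinery, and GIGYF1 and GIGYF2 are the proteins that partner with it in translational repression and mRNA decay.

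The cells were HEK293T, a human embryonic kidney line that expresses the SV40 large T antigen, untreated and harvested 24 h after plating on 15 cm dishes. There were 3 genotypes: wild type (WT), 4EHP-null, and GIGYF1/2-null, labelled as lacking both GIGYF proteins. Each was sampled as 2 libraries of RNA-seq, made from total RNA, and 2 of Ribo-seq, which sequences the fragments protected by ribosomes. The submitters call the replicates biological; the labels do not say how many clones stand behind each knockout line, so a clone cannot be told apart from its genotype.

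Total counts per library ran from 26143118 to 38175701 in RNA-seq and from 6536493 to 10816080 in Ribo-seq. The 10 host transcripts together held 19594 to 40469 RNA-seq counts and 2096 to 5355 Ribo-seq counts per library. EIF4E2 RNA was lower in 4EHP-null cells (log2 fold change -1.33, adjusted p = 5.92e-07) and GIGYF1 RNA was lower in GIGYF1/2-null cells (-0.76, adjusted p = 6.91e-04), while GIGYF2 did not pass in RNA (0.28, adjusted p = 0.124) or in Ribo-seq (-0.21, adjusted p = 0.671). The labels do not give the lesions. Of 8 HEK293T markers, 7 were at 1 CPM (counts scaled to a common library total by the TMM method) or more in every RNA-seq library, and the 8 summed to 1141 to 1299 CPM in WT, 832 to 940 CPM in 4EHP-null and 1020 to 1263 CPM in GIGYF1/2-null libraries. VIM, at 449 to 795 CPM, was the largest part of each sum. NEFM was at 212 and 174 CPM in WT and 50.7 and 44.6 CPM in 4EHP-null libraries. KRT8 was at 13.0 and 13.1 CPM in WT and 27.4 and 24.4 CPM in 4EHP-null libraries. In 4EHP-null RNA 1 of the 8 was called higher and 3 lower (6.47% and 6.63% of all tested genes). In GIGYF1/2-null RNA 4 were called higher and 1 lower (5.2% and 6.75%). The summed RNA levels of 3 hepatocyte markers stayed between 0.161 and 0.475 CPM and those of 5 leukocyte markers between 2.38 and 3.60 CPM, with the pan-leukocyte gene PTPRC at 0 in all 6. The 4 fibroblast markers summed to 7.69 to 8.77 CPM in WT, 8.47 to 9.98 CPM in 4EHP-null and 13.7 to 14.4 CPM in GIGYF1/2-null libraries; the part of other cell types in the results was not tested.

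The starts of the hosts are shown first, because a pyrimidine run near the start is the sequence feature for which these transcripts were grouped. RefSeq start windows (GRCh38.p14, 50 bases before and 50 bases from the start) were found for 8 of the 10 members; SNHG6 and SNHG15 had no entry. Shown are the start of SNHG5, whose RNA differed most between 4EHP-null and WT cells, those of SNHG8, SNHG12 and SNHG1, and that of GAS5. Each is written 5′ to 3′ on the transcribed strand, with the longest unbroken run of C or T that lies at least partly within 10 bases of the start in capitals. SNHG5 lies at chr6:85678684-85678783 on the minus strand, SNHG8 at chr4:118278712-118278811 on the plus strand, SNHG12 at chr1:28581824-28581923, SNHG1 at chr11:62855836-62855935 and GAS5 at chr1:173868996-173869095, the last 3 on the minus strand.
SNHG5: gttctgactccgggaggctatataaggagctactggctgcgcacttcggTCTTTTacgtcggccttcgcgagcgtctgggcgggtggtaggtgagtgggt
SNHG8: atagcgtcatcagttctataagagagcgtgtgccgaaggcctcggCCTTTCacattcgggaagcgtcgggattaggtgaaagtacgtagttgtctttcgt
SNHG12: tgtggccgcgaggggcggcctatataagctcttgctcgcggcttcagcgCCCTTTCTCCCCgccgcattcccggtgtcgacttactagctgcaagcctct
SNHG1: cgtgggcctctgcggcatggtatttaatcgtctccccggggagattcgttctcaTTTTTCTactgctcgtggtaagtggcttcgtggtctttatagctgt
GAS5: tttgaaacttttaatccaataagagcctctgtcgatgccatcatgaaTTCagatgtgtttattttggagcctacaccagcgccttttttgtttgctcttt

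A run of 6 or more C or T bases lay at least partly within 10 bases of the start in 7 of the 8 windows. The same was true of 31.1% of all 35116 starts in the table, of 83.5% of 79 cytosolic ribosomal protein genes and of 7 of 13 other snoRNA host genes. The run was 12 bases long in SNHG12, 11 in SNHG7, 8 in SNHG16, 7 in SNHG1 and ZFAS1, and 6 in SNHG5 and SNHG8. Counted from the RefSeq start, the SNHG7 run began at -14 and ended before the start. The runs of SNHG16 and SNHG1 began after it, at 4 and 5. Those of SNHG5 and SNHG12 (from -1), ZFAS1 (from -2) and SNHG8 (from -5) spanned it. GAS5 was the exception, with 3 bases near the RefSeq start used here. The letters TATA, which read the same on both strands, lay before the start in 5 of the 8 windows (SNHG5, SNHG7, SNHG8, SNHG12 and ZFAS1), against 8.36% of all starts and 17.7% of the ribosomal protein genes. These matches describe RefSeq starts; the starts used in these cells were not measured.

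Host transcripts differed about an order of magnitude in abundance. Per length of gene model (RPKM, here CPM divided by the deposited gene width in kilobases), SNHG5 was the most abundant in WT RNA-seq at 356 ± 25.3 (SD, n = 2), followed by GAS5 at 231 ± 10.9 and SNHG6 at 146 ± 1.12. SNHG1 at 109 ± 6.38, SNHG16 at 105 ± 6.14 and SNHG8 at 103 ± 6.73 RPKM overlapped in their libraries, so their order is not resolved. SNHG15 at 67.5 ± 6.23 and ZFAS1 at 66.1 ± 1.47 RPKM also overlapped, and SNHG12 at 33.4 ± 3.51 and SNHG7 at 28.6 ± 0.0332 came last. The range ran from the 82.0th percentile of tested genes for SNHG7 to the 98.9th for SNHG5. The means of the first 5 stood in the same order in the 3 genotypes, although the libraries of SNHG1 and SNHG16 overlapped in all 3 and those of SNHG6 and SNHG1 in GIGYF1/2-null cells. In 4EHP-null cells SNHG15, at 65.8 ± 0.721 RPKM, stood above SNHG8, at 63.3 ± 6.08, but their libraries overlapped.

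Loss of 4EHP was accompanied by a fall of nearly the whole group in RNA. Of the 10 members, 9 fell and none rose in 4EHP-null against WT cells, while 6.63% of all tested genes fell and 6.47% rose (edgeR quasi-likelihood test, two-sided, Benjamini-Hochberg adjusted p under 0.05 over 15637 genes). The median log2 fold change of the 10 was -0.56, against -0.003 over all tested genes. The members were chosen with earlier results of these data known, so these contrasts are not an independent test. In the same 9 members both knockout libraries lay below both WT libraries, which held for 29.1% of all tested genes. SNHG15 alone did not pass. DESeq2 and limma-voom also called 9. With 1 of the 4 libraries left out, 7 or 8 remained: SNHG7 was lost without either WT library or 4EHP-null replicate 2, SNHG1 without WT replicate 1 or 4EHP-null replicate 2, and SNHG16 without WT replicate 2 or 4EHP-null replicate 1. In bulk samples, less RNA per cell and fewer cells that express it cannot be told apart.

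All 6 members whose listed snoRNAs are all of the box C/D kind fell. SNHG5, which hosts SNORD50A and SNORD50B, was at 171 and 189 CPM in the WT libraries, 90.4 and 107 CPM in the 4EHP-null libraries, and 167 and 192 CPM in the GIGYF1/2-null libraries. Its 4EHP-null libraries lay well below the other 4, and the fall of 0.87 ± 0.10 (log2, SE) was the largest of the group (adjusted p = 1.94e-04). GAS5, with 10 listed snoRNAs, was at 151 and 141 CPM in WT, 90.1 and 95.6 CPM in 4EHP-null and 143 and 161 CPM in GIGYF1/2-null cells. GAS5 thus fell by 36.3% in 4EHP-null cells (log2 fold change -0.65 ± 0.09, adjusted p = 4.79e-04), with the WT and GIGYF1/2-null libraries overlapping. RefSeq also places SNORA103, of the box H/ACA kind, over GAS5; it did not pass (-0.61, adjusted p = 0.396). SNHG1, host of SNORD22 and SNORD25 to SNORD31, was at 127 and 117 CPM in WT, 95.6 and 85.4 CPM in 4EHP-null and 131 and 137 CPM in GIGYF1/2-null cells. It fell by 26.0% without 4EHP (-0.43 ± 0.09, adjusted p = 0.00567).

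SNHG6, host of SNORD87, was at 68.5 and 69.2 CPM in WT, 48.4 and 44.6 CPM in 4EHP-null and 54.0 and 61.7 CPM in GIGYF1/2-null cells. The 3 genotypes did not overlap for SNHG6, with GIGYF1/2-null between the others; the fall without 4EHP passed the test (-0.57 ± 0.09, adjusted p = 0.00207). ZFAS1, the antisense partner of ZNFX1 and host of 3 SNORD12 genes, was at 66.9 and 69.0 CPM in WT, 44.8 and 47.2 CPM in 4EHP-null and 57.8 and 65.3 CPM in GIGYF1/2-null cells. It showed the same order without overlap, and fell in 4EHP-null cells (-0.56 ± 0.09, adjusted p = 0.00172). SNHG16, host of 3 SNORD1 genes, was at 256 and 278 CPM in WT, 190 and 204 CPM in 4EHP-null and 263 and 303 CPM in GIGYF1/2-null cells. Its fall without 4EHP was 0.44 ± 0.09 on the log2 scale (adjusted p = 0.00740), and its WT and GIGYF1/2-null libraries overlapped.

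Among the hosts of box H/ACA snoRNAs, SNHG8 and SNHG7 fell and SNHG15 did not pass the test. SNHG8, host of SNORA24, was at 60.9 and 66.8 CPM in WT, 36.6 and 41.9 CPM in 4EHP-null and 53.7 and 66.1 CPM in GIGYF1/2-null cells. The fall without 4EHP was -0.71 ± 0.11 on the log2 scale (adjusted p = 0.00183). SNHG7, host of SNORA17A and SNORA17B, was at 76.6 and 76.5 CPM in WT, 55.8 and 52.9 CPM in 4EHP-null and 55.0 and 67.8 CPM in GIGYF1/2-null cells, so that both knockouts lay below WT and overlapped each other. It fell by 0.49 ± 0.10 in 4EHP-null cells (log2, adjusted p = 0.00693). SNHG12, which hosts snoRNAs of both kinds, was at 26.5 and 22.8 CPM in WT, 16.5 and 14.4 CPM in 4EHP-null and 21.8 and 23.9 CPM in GIGYF1/2-null cells, and fell without 4EHP (-0.67 ± 0.12, adjusted p = 0.00363). SNHG15, host of SNORA9, was at 50.6 and 57.7 CPM in WT, 52.4 and 53.3 CPM in 4EHP-null and 46.2 and 59.4 CPM in GIGYF1/2-null cells. All 3 genotypes overlapped for SNHG15 (-0.04, approximate 95% interval -0.27 to 0.19 in 4EHP-null, adjusted p = 0.880).

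**Figure D1:**
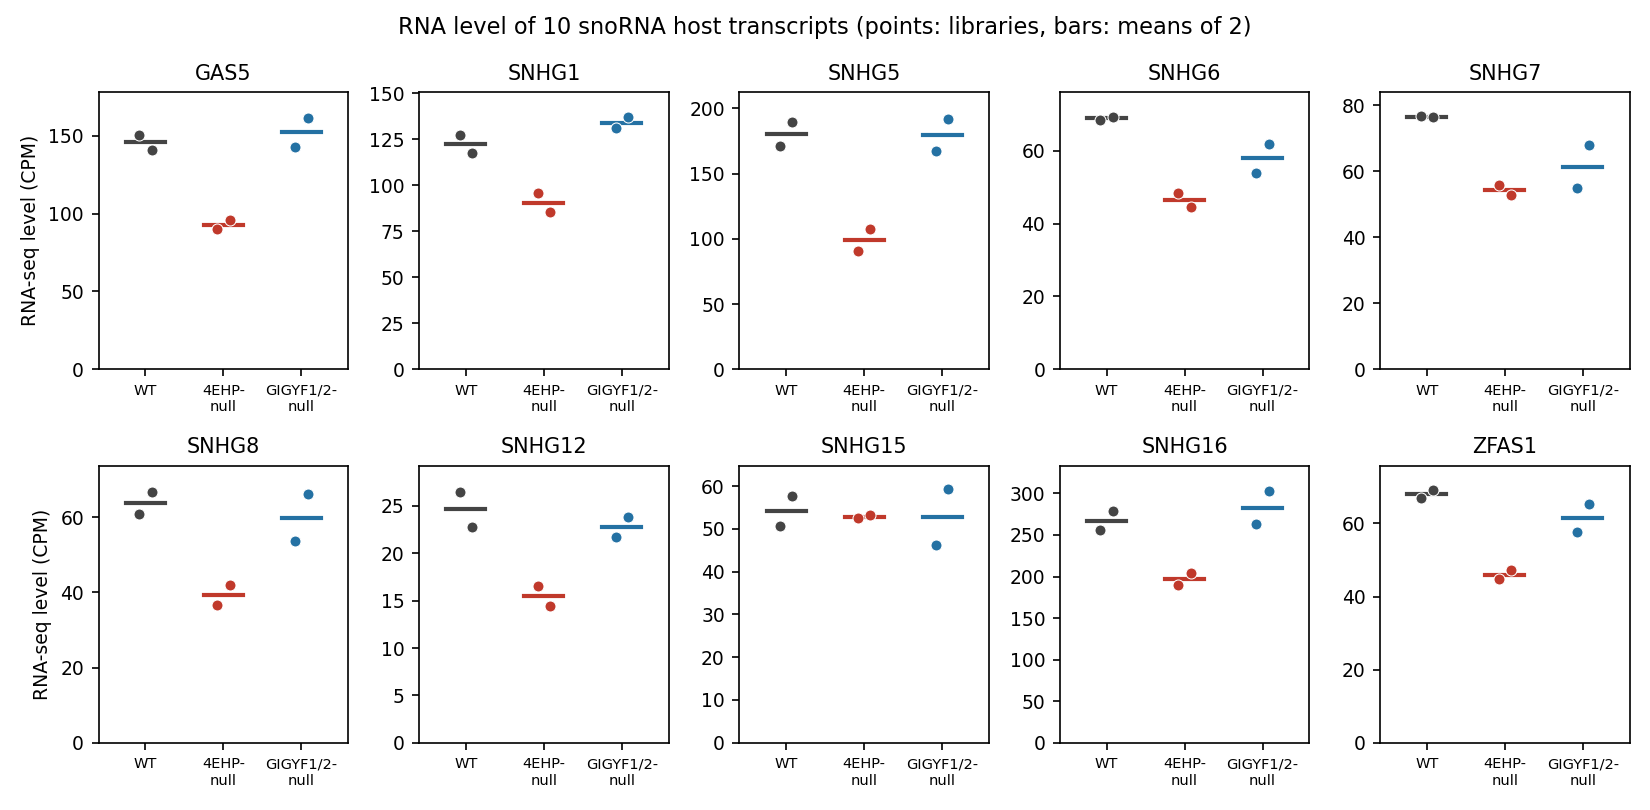
RNA-seq level (CPM after TMM scaling, linear axis from 0) of the 10 snoRNA host transcripts in WT, 4EHP-null and GIGYF1/2-null HEK293T cells; points are libraries and bars are means of 2. The 4EHP-null libraries lie below both WT libraries in every panel except SNHG15.

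In GIGYF1/2-null cells, none of the 10 host transcripts passed the test in RNA, where 11.9% of all tested genes did (5.2% higher and 6.75% lower). At an unadjusted p under 0.05 there were 2, SNHG7 (-0.32 ± 0.10, adjusted p = 0.0592) and SNHG6 (-0.25 ± 0.09, adjusted p = 0.104), and DESeq2 and limma-voom called 0. With the replicate number as a block, both were called (adjusted p = 0.00875 and 0.0326, edgeR), and SNHG7 was also called without GIGYF1/2-null replicate 2 (adjusted p = 0.0151). SNHG7 is the 1 member called lower in the authors' deposited table for this knockout (log2 fold change -0.30, adjusted p = 0.0389). Both knockout libraries lay below both WT libraries in SNHG6, SNHG7 and ZFAS1 (26.2% of all tested genes) and above them in SNHG1 (26.8% of all tested genes). The approximate 95% interval of the log2 fold change was -0.10 to 0.23 for GAS5 and -0.20 to 0.19 for SNHG5. Neither interval reached the fall seen without 4EHP.

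The 2 knockouts differed from each other. In GIGYF1/2-null against 4EHP-null cells, 8 members were higher and none lower in RNA, against 11.4% of all tested genes higher. The same 8 had both GIGYF1/2-null libraries above both 4EHP-null libraries, as did 31.7% of all tested genes. SNHG5 (0.86 ± 0.10), GAS5 (0.71 ± 0.09) and SNHG8 (0.61 ± 0.11) differed most on the log2 scale, followed by SNHG1 (0.57), SNHG12 (0.56), SNHG16 (0.52), ZFAS1 (0.42) and SNHG6 (0.32); edgeR's adjusted p for SNHG6 was 0.0274. SNHG7 (0.18, adjusted p = 0.227) and SNHG15 (-0.002, adjusted p = 0.994) did not pass. SNHG6 did not hold without either 4EHP-null library or without GIGYF1/2-null replicate 2, ZFAS1 without 4EHP-null replicate 1 or GIGYF1/2-null replicate 2, and SNHG12 without 4EHP-null replicate 2. SNHG6 was also lost in a fit of only the 2 genotypes compared (adjusted p = 0.0613). This comparison shares libraries with the others and is not independent of them.

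Footprints, measured with fewer counts, lay mostly lower in 4EHP-null cells as well. In Ribo-seq of 4EHP-null against WT cells, all 10 log2 fold changes were negative, with a median of -0.35, and both knockout libraries lay below both WT libraries in 8 members (26.8% of all tested genes). SNHG8 alone passed the test, where 3.04% of all tested genes did and 1.46% fell: it was at 39.8 and 55.1 CPM in WT, 26.0 and 23.8 CPM in 4EHP-null and 40.6 and 45.8 CPM in GIGYF1/2-null libraries. The fall of SNHG8 footprints was 0.94 ± 0.18 on the log2 scale (adjusted p = 0.0152), and the call was lost without either 4EHP-null library or WT replicate 2. SNHG5 footprints were at 56.5 and 60.0 CPM in WT, 42.7 and 33.1 CPM in 4EHP-null and 67.6 and 67.6 CPM in GIGYF1/2-null libraries (4EHP-null against WT -0.62 ± 0.15, adjusted p = 0.0510). GAS5 footprints were at 36.5 and 33.3 CPM in WT, 24.9 and 25.9 CPM in 4EHP-null and 41.2 and 40.3 CPM in GIGYF1/2-null libraries. The GAS5 footprints of the 3 genotypes did not overlap, with 4EHP-null lowest and GIGYF1/2-null highest (-0.46 ± 0.14 in 4EHP-null, unadjusted p = 0.00728 in edgeR). With the replicate number as a block, 4 members were called lower in edgeR: SNHG8, SNHG5 (adjusted p = 7.80e-04), GAS5 (0.0265) and SNHG7 (0.0492). The share of all tested genes called with the block is not given.

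The remaining hosts did not pass in 4EHP-null Ribo-seq. SNHG12 had 10 to 36 footprint counts per library, the fewest of the group, and its difference of -0.98 carried an SE of 0.40. ZFAS1 (-0.22 ± 0.14), SNHG1 (-0.26 ± 0.15), SNHG16 (-0.27 ± 0.18), SNHG15 (-0.30 ± 0.19) and SNHG6 (-0.32 ± 0.22) were within about 2 SE of 0, and SNHG7 was at -0.38 ± 0.17. In GIGYF1/2-null against WT cells, no member passed (2.09% of all tested genes did, 0.727% higher and 1.36% lower), and none had an unadjusted p under 0.05 in edgeR; DESeq2 and limma-voom also called 0. GAS5, SNHG1, SNHG5 and ZFAS1 had both GIGYF1/2-null libraries above both WT libraries (24.2% of all tested genes), with differences of 0.13 to 0.29. Between the knockouts, 4 members had more footprints in GIGYF1/2-null cells (3.98% of all tested genes): SNHG5 (0.84 ± 0.15, adjusted p = 0.00589), SNHG8 (0.80 ± 0.18, 0.0147), GAS5 (0.68 ± 0.14, 0.0102) and SNHG1 (0.55 ± 0.14, 0.0324). None of the 4 held without 4EHP-null replicate 2 and only SNHG5 without 4EHP-null replicate 1; the SNHG1 call was also lost without either GIGYF1/2-null library, in DESeq2, and in a fit of only the 2 genotypes compared (adjusted p = 0.0620). SNHG16 joined them with the replicate block (0.40, adjusted p = 0.0108).

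**Figure D2:**
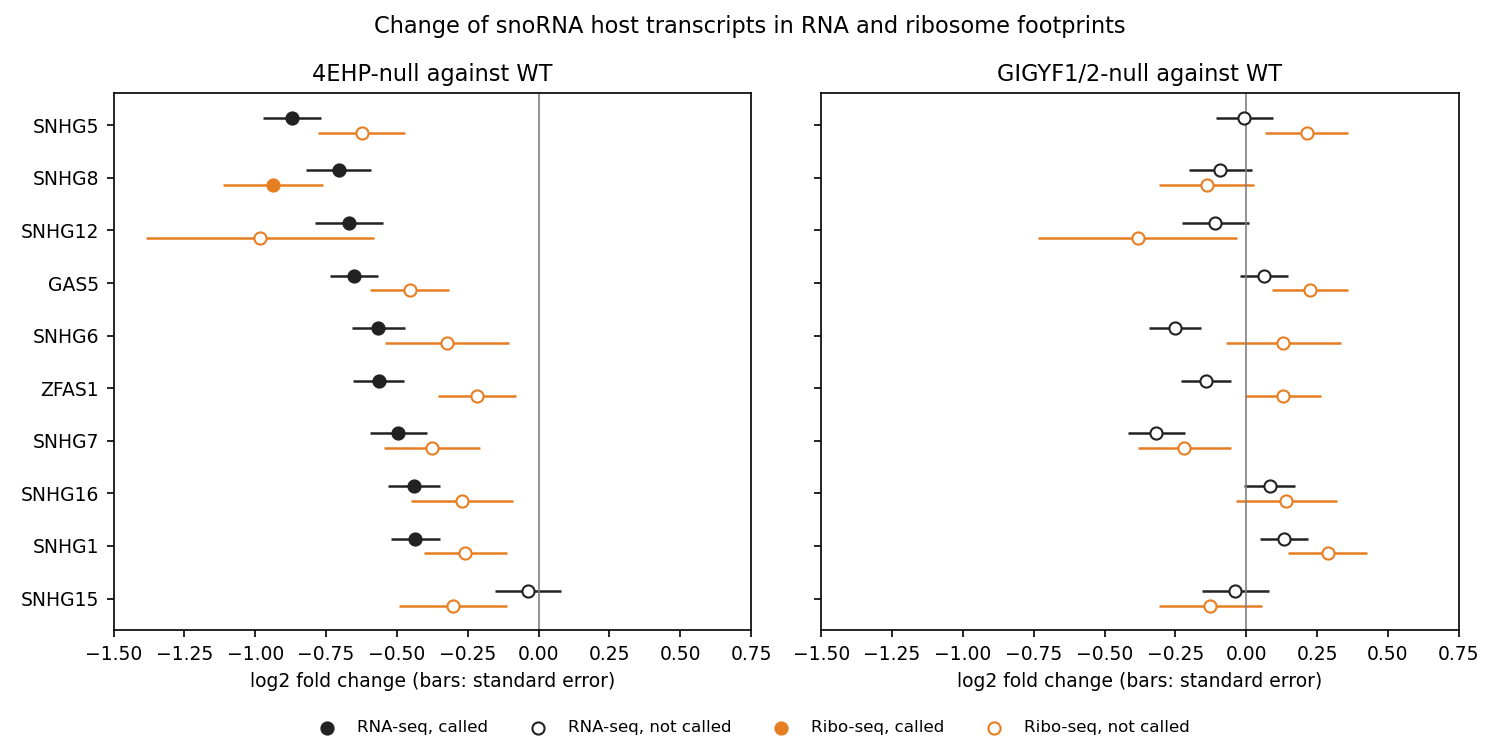
log2 fold change of the 10 host transcripts in RNA-seq (black) and Ribo-seq (orange) for each knockout against WT, with standard errors; filled points passed an adjusted p of 0.05 and open points did not. In 4EHP-null cells 9 RNA points and the SNHG8 footprint point are filled, and in GIGYF1/2-null cells none is.

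No change in footprints per transcript was detected. Translational efficiency, the footprint change minus the RNA change, passed in 0 of 10 members in 4EHP-null against WT cells (0.0981% of all tested genes, 0.0905% higher and 0.00754% lower), 0 in GIGYF1/2-null against WT (0.0453%, with 0.0377% higher and 0.00754% lower) and 0 between the knockouts (0.181%), in edgeR, DESeq2 and limma-voom alike. At an unadjusted p under 0.05 there were 1, 0 and 0: ZFAS1 in 4EHP-null cells differed by 0.37 ± 0.15 (unadjusted p = 0.0307, adjusted p = 0.623 in edgeR). For GAS5 in 4EHP-null cells the difference was 0.22 with an approximate 95% interval of -0.08 to 0.52. For SNHG5 it was 0.27 with an interval of -0.09 to 0.62. The interval for SNHG12 ran from -1.08 to 0.52, so that the data bound its change only loosely. In each knockout 7 of the 10 estimates were positive, with medians of 0.19 and 0.14; the comparisons share their WT libraries. The first median was 0.063 without 4EHP-null Ribo-seq replicate 1. The second was 0.034 without GIGYF1/2-null RNA-seq replicate 1, 0.23 without GIGYF1/2-null RNA-seq replicate 2 and 0.22 without WT Ribo-seq replicate 2.

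Most of the hosts carried few footprints for their RNA in every genotype. The log2 ratio of Ribo-seq CPM to RNA-seq CPM in WT cells had a median of -1.85 over the members and -0.49 over 13203 genes, placing the median member at the 11.2th percentile. SNHG12 (-2.65), SNHG6 (-2.41), SNHG1 (-2.33), SNHG15 (-2.07) and GAS5 (-2.06) lay below the 10th percentile. SNHG5 (-1.63), ZFAS1 (-1.18) and SNHG16 (-0.84) were intermediate, and SNHG7 (-0.61) and SNHG8 (-0.45) lay near the median of all genes, SNHG8 at the 52.0th percentile. The median percentile was 19.3 for 12 other snoRNA hosts, 69.2 for 79 ribosomal protein genes, 79.7 for 20 other TOP mRNAs and 62.8 for 15 proteins of snoRNP particles. The median member stood at the 17.0th percentile in 4EHP-null and the 15.0th in GIGYF1/2-null cells. The ratio has no absolute scale, since each assay is scaled to its own library total, and reads on a whole transcript need not lie in an open reading frame.

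**Figure D3:**
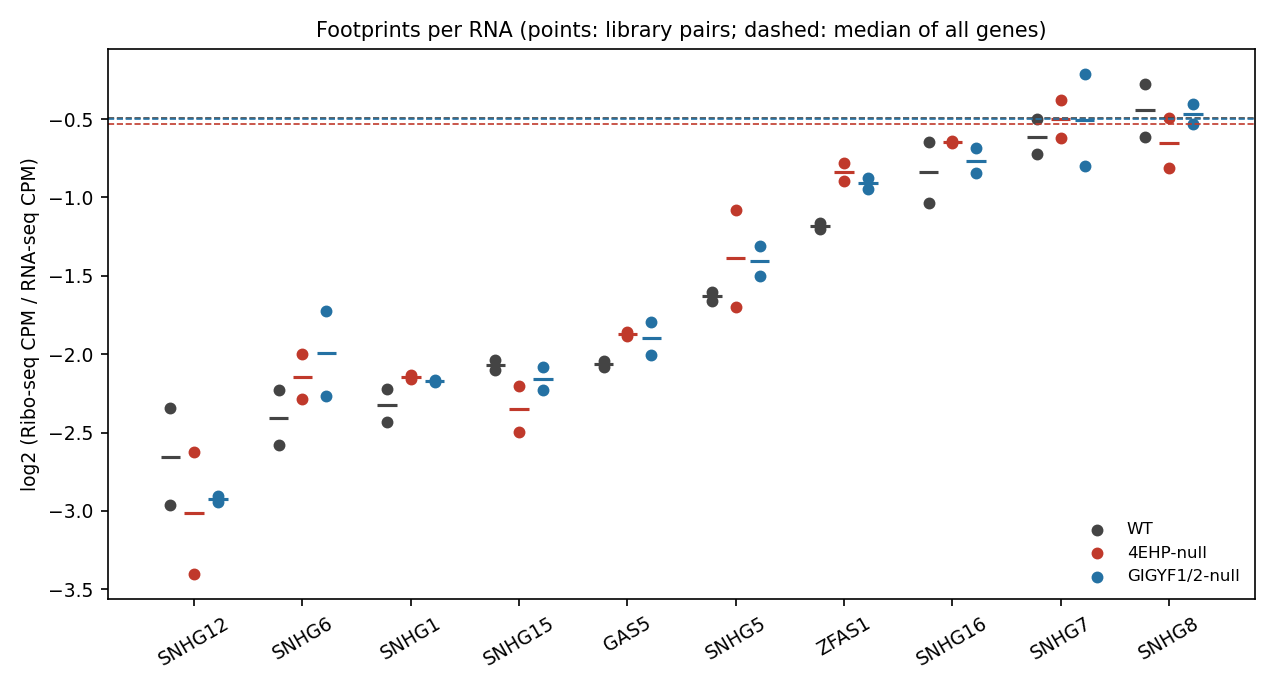
log2 ratio of Ribo-seq CPM to RNA-seq CPM for the 10 host transcripts, ordered by WT value; points are pairs of libraries of the same genotype and number, bars are means, and dashed lines are the medians of all genes in each genotype. SNHG12, SNHG6, SNHG1, SNHG15 and GAS5 sit lowest, and SNHG7 and SNHG8 sit close to the median gene.

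The snoRNAs inside the hosts were counted as rows of their own. In Ribo-seq 5 of them rose in 4EHP-null cells, while among their hosts only SNHG8 had a called change, a fall. Of 37 listed snoRNAs 35 had a row. Their counts summed to 2.71% to 3.47% of the host counts in the RNA-seq libraries but to 87.7% to 241% in the Ribo-seq libraries. snoRNAs are not translated, so counts on them in Ribo-seq are not footprints of ribosomes. In RNA-seq of 4EHP-null against WT cells, 28 had enough counts to test and 1 fell (SNORA16A of SNHG12, -1.44 ± 0.43, adjusted p = 0.0425, not called by DESeq2, limma-voom or with any single library left out), beside 6.63% of all genes; the median over the 28 was -0.49. In Ribo-seq, 5 of 31 rose, beside 1.58% of all genes, and none fell, with a median of 0.46.

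SNORD77 of GAS5 had 71 and 131 Ribo-seq counts in WT, 329 and 389 in 4EHP-null and 130 and 300 in GIGYF1/2-null libraries, so that the 4EHP-null libraries were highest. It rose by 2.19 ± 0.22 (log2, adjusted p = 2.62e-04), while GAS5 itself stood at -0.46 and did not pass. SNORD27 of SNHG1 had 101 and 150 counts in WT, 264 and 240 in 4EHP-null and 92 and 177 in GIGYF1/2-null libraries (1.36 ± 0.19, adjusted p = 0.00315). SNORA9 of SNHG15 had 210 and 414 counts in WT, 619 and 669 in 4EHP-null and 280 and 527 in GIGYF1/2-null libraries (1.43 ± 0.18, adjusted p = 0.00157). These 3 calls held with each of the 4 libraries left out. SNORA24 of SNHG8 (1.25 ± 0.27, adjusted p = 0.0312) and SNORD25 of SNHG1 (0.76 ± 0.18, adjusted p = 0.0462) held in none of those fits and were not called by DESeq2.

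With the replicate block, 11 of the 31 rose and 2 fell in Ribo-seq of 4EHP-null against WT cells. The 1.58% above is of the main fit, and no share of all genes is given for the block. In GIGYF1/2-null against WT cells, none of the snoRNAs was called in RNA-seq or Ribo-seq by edgeR (unadjusted p under 0.05: 1 and 3), beside 11.9% and 2.09% of all tested genes, while DESeq2 called 1 in Ribo-seq. Between the knockouts, 5 snoRNAs were lower in GIGYF1/2-null Ribo-seq (6.8% of all genes): SNORD77 (-1.29), SNORD27 (-1.45), SNORA9 (-1.22), SNORA24 (-1.13) and SNORD12B of ZFAS1 (-1.13). The SNORA24 call was lost without either 4EHP-null library, without GIGYF1/2-null replicate 2 and in DESeq2, and that of SNORD12B without 4EHP-null replicate 2. In RNA-seq 4 were higher there (11.4% of all genes): SNORD47 (1.23), SNORD79 (0.88) and SNORD80 (0.61) of GAS5, and SNORA61 of SNHG12 (0.71). Each of these 4 was lost without at least 1 library, and DESeq2 called 1.

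**Figure D4:**
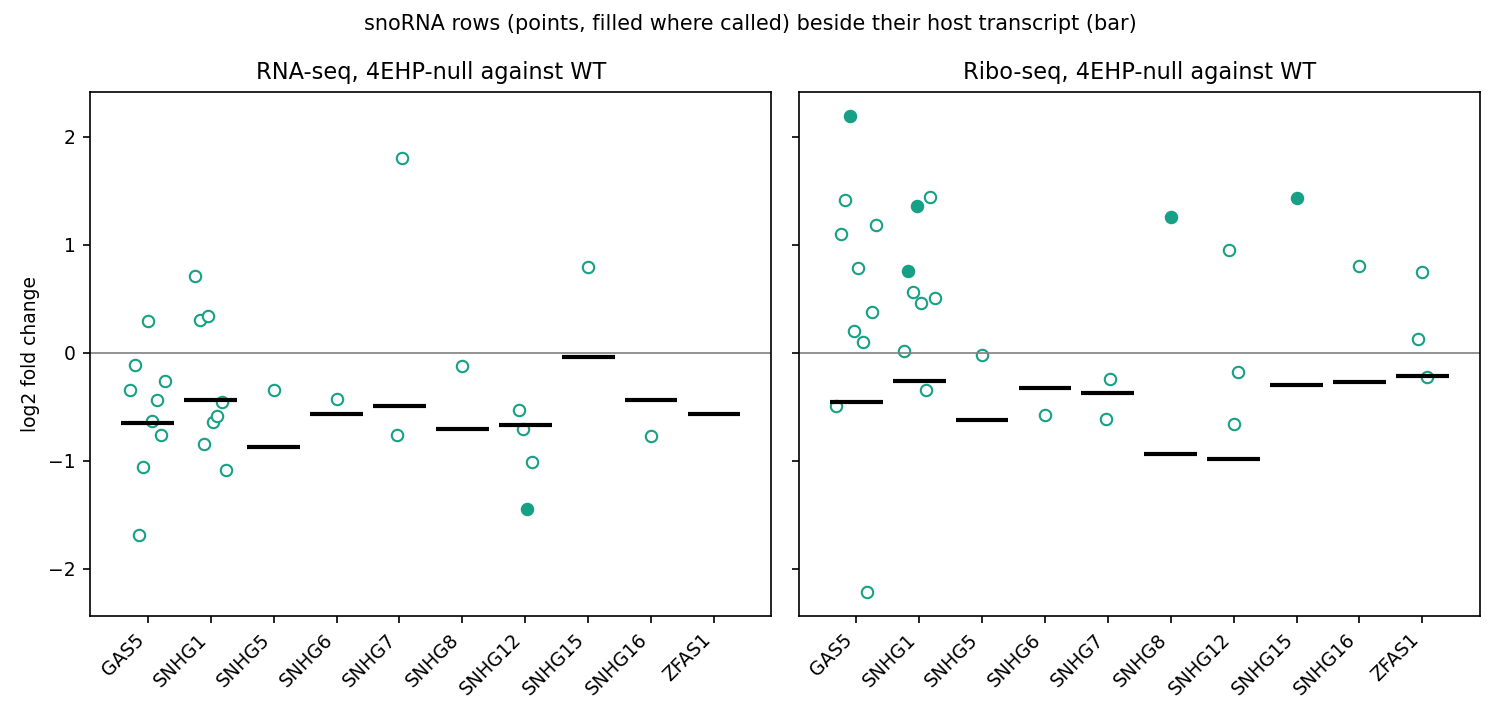
log2 fold change in 4EHP-null against WT cells of each tested snoRNA (points, filled where the adjusted p was under 0.05), placed above the name of its host, whose own change is the horizontal bar; RNA-seq is on the left and Ribo-seq on the right. In Ribo-seq the filled points all lie above 0 and above their host's bar, among them SNORD77 of GAS5 at 2.19.

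Of 15 other snoRNA hosts, nearly all noncoding, 12 could be tested in RNA. In 4EHP-null cells 5 of the 12 fell, beside 6.63% of all tested genes, and the other 7 did not pass; the median over the 12 was -0.40. Those that fell were DANCR (-0.59 ± 0.10, adjusted p = 0.00183), SNHG21 (-0.80 ± 0.15, 0.00410), SNHG3 (-0.37 ± 0.08, 0.00840), EPB41L4A-AS1 (-0.50 ± 0.12, 0.0200) and SNHG4 (-0.49 ± 0.12, 0.0204). DANCR held with each library left out; the count ranged from 1 without 4EHP-null replicate 1 to 4 without WT replicate 2, and was 9 with the replicate block. No share of all tested genes is given for the block or for fits with a library left out. In GIGYF1/2-null cells 1 of the 12 fell, beside 6.75% of all tested genes. It was SNHG10 (-0.59 ± 0.13, adjusted p = 0.0102), a call lost without WT replicate 2.

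Protein-coding snoRNA hosts, ribosomal protein genes and other TOP mRNAs had negative medians in 4EHP-null RNA, where 6.63% of all tested genes fell. In GIGYF1/2-null RNA 6.75% of all tested genes fell. Both shares are of the main fit, and none is given for the block, DESeq2 or fits with a library left out. Among 43 protein-coding snoRNA hosts, 17 fell and none rose in 4EHP-null RNA (median -0.28), led by RPL4 (-0.61 ± 0.09, adjusted p = 9.40e-04), a protein of the large ribosomal subunit; 27 fell and 1 rose with the replicate block, and with a library left out 1 fell (without WT replicate 2), 5 (without WT replicate 1 or 4EHP-null replicate 1) or 7 (without 4EHP-null replicate 2). Of 79 cytosolic ribosomal protein genes, which overlap that list, 47 fell and none rose (median -0.36), among them RPL36A (-0.83 ± 0.10, adjusted p = 1.91e-04); 72 fell and 1 rose with the block, while 5 fell without WT replicate 2, 10 without 4EHP-null replicate 1, 14 without WT replicate 1 and 17 without 4EHP-null replicate 2. In GIGYF1/2-null cells 4 of the 79 fell (median -0.15), RPL21, RPS6 and RPS12 among them at -0.73, -0.67 and -0.75; DESeq2 called 10 lower, the block 18, and 13 fell without GIGYF1/2-null replicate 2. Of 20 other TOP mRNAs, mostly translation factors, 3 fell in 4EHP-null cells (median -0.21; EIF3F, TPT1 and EEF1G, at -0.30, -0.33 and -0.32), none of which held with any library left out, against 7 in DESeq2 and 10 with the block, and 4 fell in GIGYF1/2-null cells, led by TPT1 (-0.78 ± 0.09, adjusted p = 2.12e-04), which encodes the translationally controlled tumour protein.

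Proteins that assemble on snoRNAs and proteins of NMD were read beside all tested genes, of which 13.1% were called in 4EHP-null and 11.9% in GIGYF1/2-null RNA. These shares are of the main fit, and none is given for the block. Of 15 proteins of snoRNP particles, such as fibrillarin and dyskerin, none passed in 4EHP-null RNA (edgeR, unadjusted p under 0.05: 0; DESeq2 and limma-voom: 0), with a median of -0.05. NUFIP1, an assembly factor of box C/D particles, fell in GIGYF1/2-null cells from 33.2 ± 1.14 to 18.8 ± 1.31 CPM (SD, n = 2; -0.82 ± 0.11, adjusted p = 4.82e-04). Of 18 NMD factors, UPF2 (0.48 ± 0.13, adjusted p = 0.0331) and UPF3B (0.39 ± 0.10, 0.0222) rose and PNRC2 (-0.46 ± 0.08, 0.00298) fell in 4EHP-null cells, a share near that of all tested genes. UPF2 and UPF3B held in only 1 of the 4 fits with a library left out, without 4EHP-null replicate 1, and PNRC2 was lost without 4EHP-null replicate 2; with the block 3 rose and 2 fell. In GIGYF1/2-null cells UPF1, the central NMD helicase (-0.48 ± 0.10, adjusted p = 0.00840), and SMG9 (-0.56 ± 0.12, 0.0100) fell; UPF1 was lost without WT replicate 1, and SMG9 without that library or GIGYF1/2-null replicate 2; with the block 2 rose and 4 fell.

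Of 24 mRNAs known to be sensitive to NMD, 4 rose in 4EHP-null RNA, UPF2 and UPF3B among them, and 3 fell (median -0.06), where 6.47% of all tested genes rose and 6.63% fell. ATF3, a stress-induced transcription factor, rose from 26.5 ± 0.0403 to 46.4 ± 7.64 CPM (0.80 ± 0.12, adjusted p = 0.00118) and held with each library left out, and CDKN1A (0.51) rose while GADD45B (-0.55), RPL12 (-0.46) and SRSF2 (-0.28) fell, none of these 4 holding with any library left out. In GIGYF1/2-null RNA SRSF2 alone fell (-0.48 ± 0.08, adjusted p = 0.00247), where DESeq2 called 4 lower and limma-voom 3. With the block, for which no share of all tested genes is given, 6 rose and 6 fell in 4EHP-null cells.

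**Figure D5:**
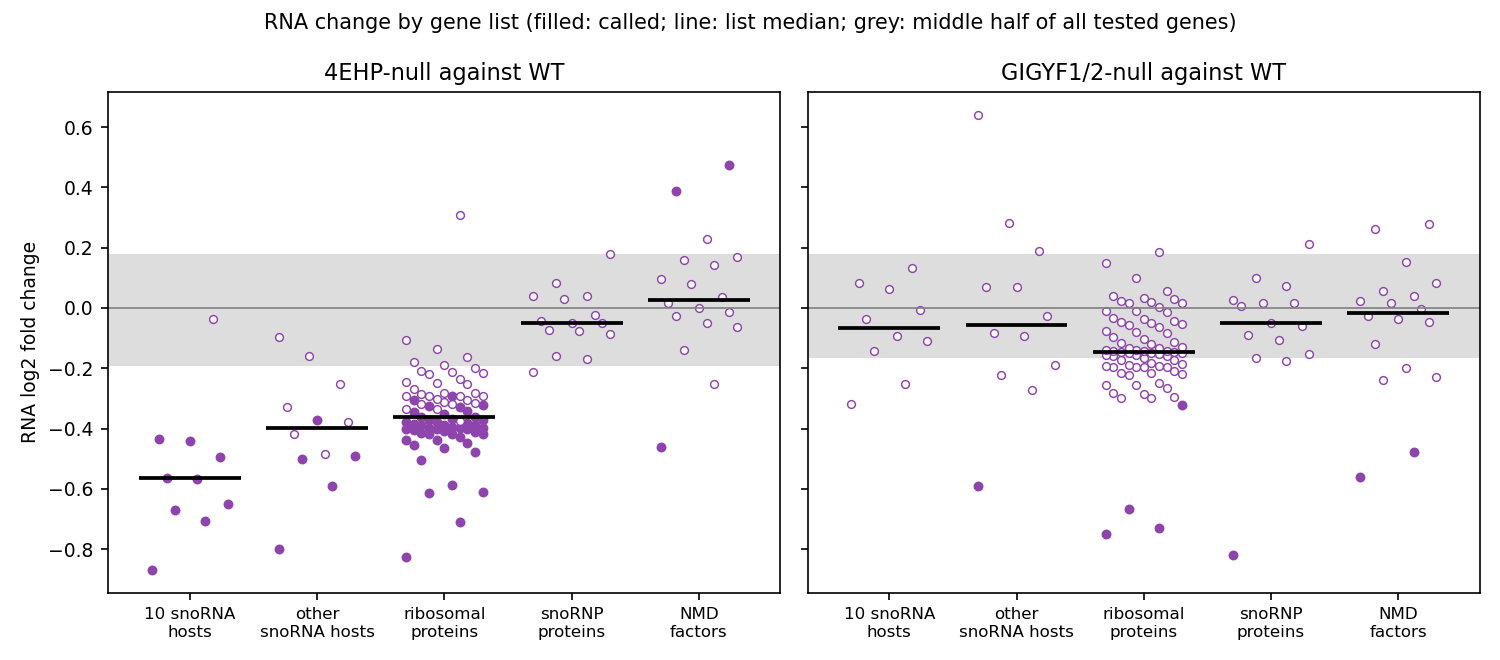
RNA log2 fold change of each tested gene in 5 gene lists for each knockout against WT; filled points passed an adjusted p of 0.05, black lines are list medians and the grey band spans the 25th to the 75th percentile of all tested genes. In 4EHP-null cells the members, other snoRNA hosts and ribosomal proteins lie mostly below the band, and snoRNP proteins lie mostly within it.

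Genes beside the hosts were examined for comparison. Of 26 tested genes that neighbour or overlap a member in RefSeq, 1 rose and 6 fell in 4EHP-null RNA, with a median of -0.09. Of all tested genes, 6.47% rose and 6.63% fell. RC3H1, a neighbour of GAS5, did not pass (-0.08, adjusted p = 0.620), while the overlapping GAS5-AS1 fell from 5.15 and 5.30 to 2.87 and 3.05 CPM (-0.82, adjusted p = 0.0151), a call lost with any library left out. Whether the counting used strand is not stated, so reads of GAS5 and GAS5-AS1 cannot be told apart. MCMDC2, which overlaps SNHG6, was at -0.47 (adjusted p = 0.0482), a call not made by DESeq2, by limma-voom or with any library left out. Reads of SNHG6 and MCMDC2 likewise cannot be told apart. Among the others that fell were TCF24 beside SNHG6 (-0.82, adjusted p = 0.00239), TAF12 beside SNHG12 (-0.48, 0.0223) and PURB beside SNHG15 (-0.63, 0.00155). TCF24 and PURB held with each library left out, and TAF12 only without 4EHP-null replicate 1. ZNF292 beside SNHG5 rose (0.55, adjusted p = 0.0132), a call lost without WT replicate 1 or 4EHP-null replicate 2. In GIGYF1/2-null RNA 3 of the 26 rose and 1 fell, beside 5.2% and 6.75% of all tested genes. ZNF292 (0.43), TCF24 (0.64) and PRSS12 beside SNHG8 (0.61) rose, and PURB (-0.51) fell. None of these calls held with each library left out.

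Over the 6 RNA-seq libraries, the 5 genes whose log2 CPM followed GAS5 most closely among 8809 genes were TSPAN6, ZBTB18, SMIM19, COX5A and FAM103A1, with Pearson r from 0.993 to 0.996. All 5 were lower in 4EHP-null than in WT cells, by 0.40 to 0.52 on the log2 scale. This direction follows from how they were picked, since GAS5 was lower there in the same libraries. Among the members r with GAS5 was 0.97 for SNHG5, 0.97 for SNHG16, 0.95 for SNHG1, 0.95 for SNHG8, 0.94 for ZFAS1, 0.93 for SNHG12, 0.83 for SNHG6, 0.69 for SNHG7 and 0.12 for SNHG15. These values describe 6 libraries that share genotypes and carry no test.

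The authors' deposited tables gave the members similar values. For RNA in 4EHP-null cells the authors' deposited table listed 9 of the 10 with an adjusted p under 0.05, all lower, with GAS5 at -0.66 (adjusted p = 5.50e-09) and SNHG15 at -0.04 (adjusted p = 0.867). For Ribo-seq in 4EHP-null cells the authors' deposited table listed 2 lower, SNHG8 (-0.88) and SNHG5 (-0.57), and for GIGYF1/2-null cells none. The authors' deposited tables of translational efficiency listed none of the 10 in either knockout.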

How the data were processed

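The authors deposited raw read counts per gene symbol and gene widths for the 12 libraries, with no normalization. Per the submitters' processing notes, Bowtie2, TopHat2, edgeR and hg19 were used; the counting tool, annotation and strand setting (each not given in the sources used here) could not be checked. Per the file headers, the authors' deposited comparison tables hold log2 fold changes, p-values and, for translational efficiency, ratios of footprints to RNA; the ratios were not used.

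Counts were analysed in R 4.3.3 with edgeR 4.0.16 (filterByExpr, TMM, quasi-likelihood F-test). All 6 libraries of an assay entered 1 fit, which pooled the spread over the 3 genotypes; the fits covered 15637 genes in RNA-seq, 14722 in Ribo-seq and 13257 for translational efficiency, which was an interaction term over all 12 libraries. Adjusted p-values are Benjamini-Hochberg over all tested genes, and "rose", "fell" and "called" mean an adjusted p under 0.05. Intervals are 1.96 SE on either side. edgeR's common biological coefficient of variation came to 0.0862 for RNA-seq and to 0.119 for Ribo-seq. The fits were tested on simulated data with 200 changed genes. limma 3.58.1 (voom), DESeq2 1.42.0, other scalings and filters, a replicate block and leaving out each library were alternatives.

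Members and lists were chosen with earlier results of these data known. Named were all members, up to 3 genes per direction from each other list with the smallest adjusted p in each comparison with WT, every snoRNA of the members with counts, the nearest tested gene on either side of a member, and the 5 genes with an average log2 CPM of at least 4 that correlated best with GAS5; EPB41L4A-AS1, SNHG4, GAS5-AS1, SNORA103 and MCMDC2 were added after their values were seen, and some neighbouring genes are not reported here. Same-numbered libraries of different genotypes deviated together from their group means (r across genes of 0.137, 0.328 and 0.210 in RNA-seq and 0.159, 0.369 and 0.252 in Ribo-seq). The labels do not say that a number marks a shared culture, so the main fit carries no block. If the numbers do pair libraries, the main fit ignores that pairing. The fit with the block is an alternative, and the calls of members that it changed are listed below. All shares of all tested genes are of the main fit, so counts from the alternatives have no share of their own beside them.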

Additional observations from a re-analysis of the deposited data

Results flagged for a closer look

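For 8 members the RNA change from WT differed between the knockouts by the test of the difference itself in edgeR (GIGYF1/2-null change minus 4EHP-null change, log2, adjusted p under 0.05): GAS5 by 0.71, SNHG1 by 0.57, SNHG5 by 0.86, SNHG6 by 0.32, SNHG8 by 0.61, SNHG12 by 0.56, SNHG16 by 0.52 and ZFAS1 by 0.42. In Ribo-seq the same test set the knockouts apart for GAS5 (0.68), SNHG1 (0.55), SNHG5 (0.84) and SNHG8 (0.80). In all 12 cases the 4EHP-null libraries were the lower ones. The WT libraries drop out of this difference, so it is the GIGYF1/2-null against 4EHP-null test given above and not a further result. Of all tested genes, 11.4% were higher in that test in RNA and 3.98% in Ribo-seq. The calls lost with a library left out are given with it.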

How the results depend on the processing

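The 9 members called lower in RNA of 4EHP-null cells were also 9 under every other scaling, filter and tool tried, and 7 to 8 with a library left out; between the knockouts the RNA count of 8 ranged from 6 to 9 with a library left out. In RNA of GIGYF1/2-null against WT cells the count of 0 became 1 without a filter on low counts and 2 with the replicate block, and ranged from 0 to 1 with a library left out. In Ribo-seq of 4EHP-null against WT cells the count of 1 became 2 with limma-voom, without a filter, with upper-quartile scaling and with only the 2 genotypes compared, and 4 with the replicate block; with a library left out it ranged from 0 to 1. Between the knockouts the Ribo-seq count of 4 ranged from 0 to 3 with a library left out. The cause of these shifts was not tested. Counts for translational efficiency stayed at 0 under every alternative. Over all alternatives, 1159 comparisons of a value with its alternative stayed on their side of the threshold, 28 lost a call and 13 gained one. In 62 of them the sign differed from the main fit, in values called in neither. The replicate block changed no call of a member beyond SNHG6 and SNHG7 (RNA, GIGYF1/2-null against WT), GAS5, SNHG5 and SNHG7 (Ribo-seq, 4EHP-null against WT) and SNHG16 (Ribo-seq, between the knockouts). Where a library is left out, the lone remaining one is assumed to vary like the other groups. With 2 libraries per group and 10 to 36 footprint counts for SNHG12, small changes in footprints were not detectable.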
